A study of Homo sapiens with 4 samples.

Results

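The DNA replication machinery of T24 cells, a line established from a human bladder carcinoma, was described through 49 genes that encode the proteins which license origins, unwind and copy DNA, join the new strands, make deoxynucleotides and place chromatin behind the fork, together with E2F1. The members were listed by name from textbook complexes, with earlier results of these data known, and all 49 were found among the 60623 genes of the deposited table. The study asked what CBX7, a chromobox protein of Polycomb repressive complex 1, does in urothelial bladder carcinoma. T24 cells grown in RPMI with 10% FCS were sequenced as 2 control libraries (CON 1 and 2) and as 2 libraries of cells overexpressing CBX7 (CBX7 1 and 2), the full-length gene having been placed in a pCDH vector with a 3×FLAG tag. The labels do not say whether the 2 libraries of a group came from separate cultures, nor whether the cells were a pool or 1 clone, so p-values measure only the spread between these libraries, which may be technical.

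Replication begins when the origin recognition complex, CDC6 and CDT1 load the MCM2-7 helicase onto DNA in G1. In S phase CDC45 and GINS join the helicase, polymerase alpha-primase lays down primers, and polymerases delta and epsilon extend the strands while held by the PCNA clamp, which the RFC complex loads. Many of these genes are transcribed at the G1/S transition under E2F factors, and their transcripts are commonly used as a sign of cycling cells.

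The overexpressed gene was present as labelled, with expected counts of 261.41 and 203.31 on CBX7 in the control libraries and 42852 and 35641 in the CBX7 libraries. On the log2 scale CBX7 was 7.35 higher (standard error 0.18), with a p of 0.000584 in the quasi-likelihood test of edgeR after adjustment over all genes by Benjamini and Hochberg. The expected counts of a library summed to between 20800910 and 25135488. The keratins KRT7, KRT8 and KRT18 were abundant in all libraries, and the summed level of 5 epithelial markers was 3150.6 to 3247.6 TPM in control and 3350.9 to 3730.4 TPM in CBX7-overexpressing cells, while EPCAM stayed between 0.58 and 1.78 TPM. KRT19, the fifth, had 7.64 and 6.64 TPM in control and 17.3 and 15.1 TPM in CBX7-overexpressing cells, higher in both CBX7 libraries. The uroplakins, which define the differentiated urothelium, were at or near 0 in every library, and the 31.7 to 33.1 TPM (control) and 30.1 to 34.2 TPM (CBX7) summed over 7 urothelial markers came mostly from PPARG and FOXA1. Summed leukocyte markers (3 genes) stayed under 2 TPM, with 0.8 to 1.64 TPM in control and 1.26 to 1.36 TPM in CBX7 libraries, and 3 endothelial markers summed to 0.32 TPM in control and 0.19 TPM in CBX7 libraries. The part of these markers in the results was not tested.

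In CBX7-overexpressing T24 cells the transcripts of the replication machinery lay close to their control levels. All 49 genes passed the filter on low counts, and 0 reached an adjusted p under 0.05 by that test, against 0.0202% (3 genes) of the 14862 genes tested. At an unadjusted p under 0.05 the count was also 0 of 49, against 4.74% of all genes tested, and DESeq2's Wald test likewise gave 0 members at the adjusted threshold, against 0.451% of all genes, and 0 at the unadjusted one, against 2.88%. The smallest adjusted p of a member was 0.951. The log2 fold changes of the members (CBX7 over CON) ran from -0.13 for GINS4 to 0.38 for GINS2, with 32 above 0 and 17 below, and 50.3% of all genes tested lay above 0. Their median was 0.04, beside 0.00 for all genes, and the median size without sign was 0.09, beside 0.15 for all genes. With 2 against 2 libraries, 0.333 is the smallest two-sided p that exact permutation of 1 gene allows.

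The intervals describe how far apart the groups could lie, given only the spread between these libraries, which may be technical. The standard error of a member's log2 fold change was 0.12 to 0.22 (median 0.15), and all 49 of the 95% intervals, each taken singly, lay within a 2-fold change in either direction, as did 75.6% of the intervals of all genes. For 39 of the 49 the interval lay within 1.5-fold, against 40.8% of all genes. No member's estimate (0 of 49) passed 1.5-fold, a size reached by 7.5% of all genes tested. The lowest bound of any member was -0.59 and the highest 0.89 on the log2 scale. Estimates also depended on the CBX7 library used. CDT1 was at 0.60 (log2) without CBX7 replicate 2 and at 0.03 without CBX7 replicate 1.

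**Figure D1:**
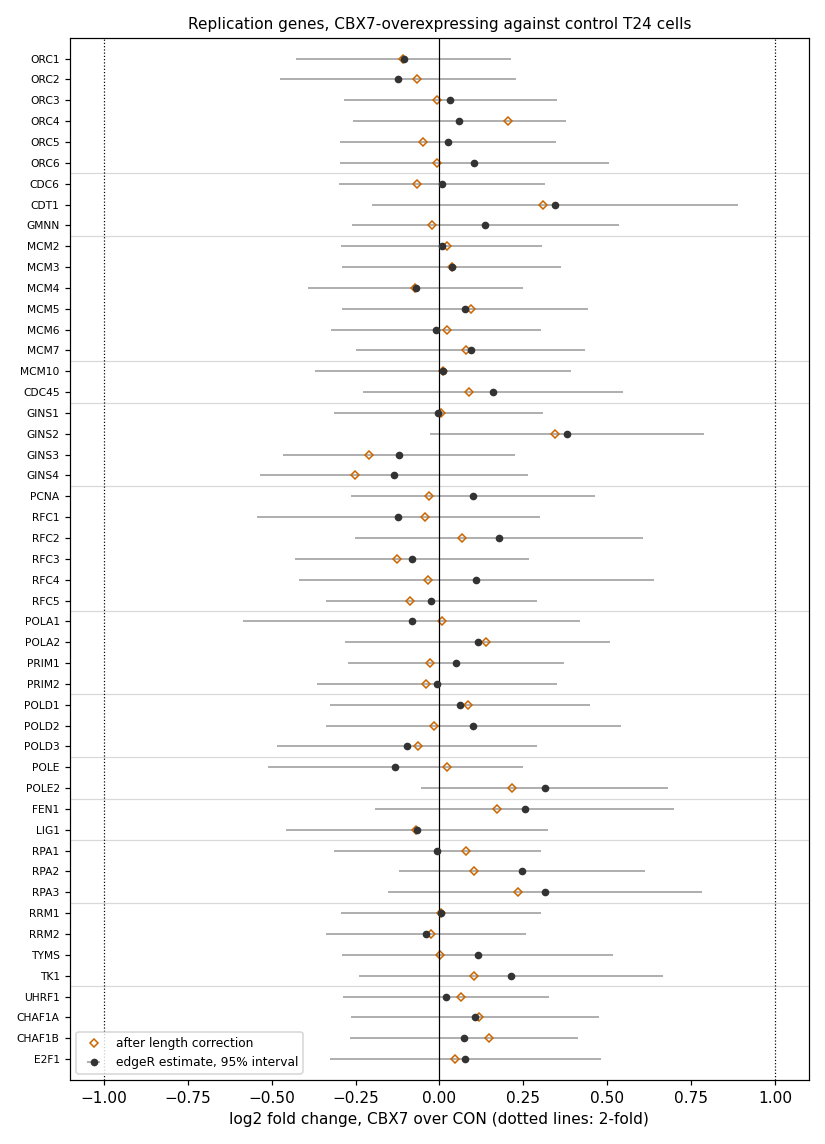
The log2 fold change of each of the 49 replication genes (horizontal axis, CBX7 over CON) is drawn as a filled point with its 95% interval from edgeR, and open diamonds give the estimate after the length correction, with grey lines parting the complexes. Every interval includes 0 and lies between the dotted lines at a 2-fold change, with GINS2 (0.38) and GINS4 (-0.13) at the ends of the main estimates.

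The replicates differed in a way that touched these genes. In CBX7 replicate 1 short genes were read more and long genes less than in the other libraries, relative to the library as a whole. Across the 49 members, the Spearman correlation of the log2 ratio of CBX7 replicate 1 to CON replicate 1 with gene length was -0.46, beside -0.62 over the 11077 genes that averaged 100 counts or more. For replicate 2 the same correlation was -0.07 for the members and 0.042 for all genes. The CBX7 libraries against each other gave -0.49 for the members, and the control libraries against each other -0.37. These correlations describe genes that share 4 libraries, and genes are not independent replicates.

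By length class the same pattern appeared as levels. The 15 members under 2000 bases by table length, among them PCNA, POLE2, RPA2 and GINS4, had a median log2 ratio of 0.23 between the libraries numbered 1, where all genes of that length had 0.28. The 11 members between 2000 and 3000 bases, which include GINS2, CDT1, RPA3 and FEN1, had 0.24, where all genes had 0.08. The 23 members of 3000 bases and over, POLE among them, had -0.01, where all genes had -0.17. Between the libraries numbered 2 the medians of the members in these classes were -0.0015, 0.04 and -0.02. A correction that removed each library's smooth trend on gene length was run for every gene. After it the members' correlation with length was 0.21 between the libraries numbered 1 and 0.29 between the CBX7 libraries, the SD of their log2 ratios between the libraries numbered 1 went from 0.22 to 0.20, and the 11 members between 2000 and 3000 bases kept a median of 0.17 there. The removal of the trend over all genes thus left differences among the members.

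**Figure D2:**
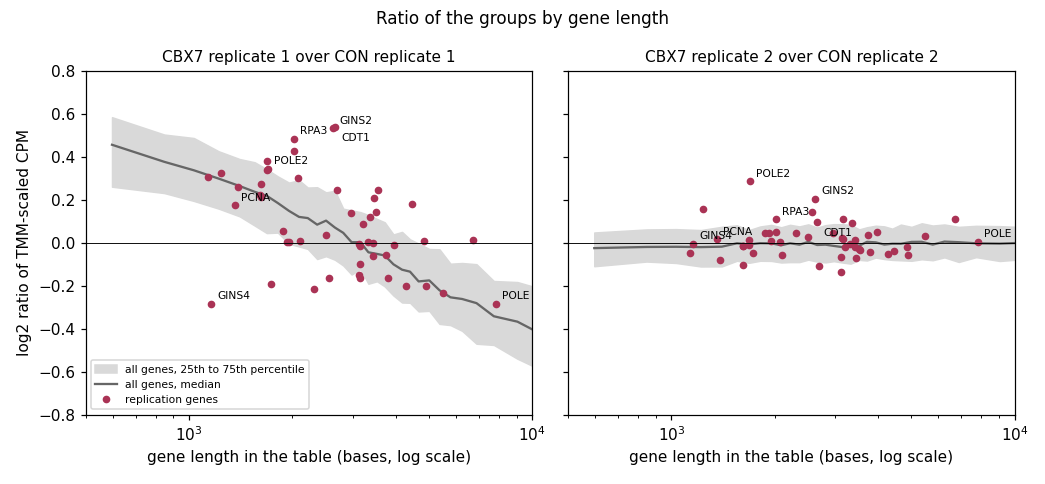
The log2 ratio of TMM-scaled CPM (vertical axis) is plotted against gene length in the deposited table (log scale) for CBX7 over CON replicate 1 (left) and replicate 2 (right), with replication genes as points, the median of genes with at least 100 counts on average as a line and their 25th to 75th percentile as a band. The band slopes down on the left and is flat on the right, and GINS2, CDT1 and RPA3 lie above it and GINS4 below it on the left.

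After the length correction 0 of 49 members had an adjusted p under 0.05, against 0.0135% of all genes, and 1 member, GINS2, had an unadjusted p under 0.05, against 6.88% of all genes. The number of members above 0 was 28, the median log2 fold change 0.01, and 14 of the 49 changed sign. The largest of those 14 had a size of 0.14 without the correction. Leaving out a CBX7 library changed more. Without CBX7 replicate 2, when CBX7 replicate 1 alone stood for the group, 16 members were called (12 of them higher), but so were 35.5% of all genes tested. Without CBX7 replicate 1, 0 members were called, against 2.59% of all genes, and 24 of the 49 changed sign, the largest of them 0.21 in size before.

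At the origin, the 6 subunits of the origin recognition complex were at 27.2 to 64.7 CPM in the 4 libraries. ORC2, a core subunit, had 45.1 and 47.0 CPM in control and 39.2 and 45.3 CPM in CBX7-overexpressing cells. The libraries of the groups overlapped, and only CBX7 replicate 1 stood low. ORC2 had a log2 fold change of -0.12 (standard error 0.14, adjusted p = 0.951, edgeR) without and of -0.07 with the length correction. After that correction both CBX7 libraries (42.3 and 43.8 CPM) lay below the controls (44.7 and 45.4 CPM). The estimate was -0.02 without CBX7 replicate 1, -0.23 without CBX7 replicate 2 and -0.03 after a correction for length and GC content. ORC1, the subunit whose level follows the cell cycle, had 40.0 and 40.1 CPM against 36.0 and 38.3 CPM, and both CBX7 libraries lay below both control libraries. ORC3 (27.3 and 27.2 against 28.0 and 27.7 CPM) and ORC4 (41.1 and 39.5 against 41.5 and 42.6 CPM) had both CBX7 libraries above. After the length correction the groups of ORC3 and ORC4 overlapped, ORC4 then having 40.9 and 36.1 against 50.2 and 38.7 CPM, and their log2 fold changes went from 0.03 to -0.01 and from 0.06 to 0.21. The median log2 fold change over the complex was 0.03, and -0.03 after the length correction.

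Among the licensing factors, CDT1, which brings the MCM helicase to the origin, had 58.4 and 52.9 CPM in control and 84.7 and 56.6 CPM in CBX7-overexpressing cells. Its excess lay in CBX7 replicate 1, and the other CBX7 library lay between the controls. The estimate for CDT1 was a log2 fold change of 0.34 (standard error 0.22, adjusted p = 0.951, edgeR), 0.31 after the length correction and 0.16 after a correction for length and GC content. Without CBX7 replicate 1 the difference was 0.03 (log2). CDC6, the ATPase that works with CDT1, was level at 121.5 and 120.4 against 122.0 and 121.1 CPM. GMNN, which encodes the CDT1 inhibitor geminin, had 33.3 and 33.9 against 41.2 and 32.8 CPM, again with only CBX7 replicate 1 high, and the length correction moved its log2 fold change from 0.14 to -0.02.

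The helicase genes MCM2 to MCM7 were close to their control levels. MCM3 had 182.6 and 175.9 CPM in control and 194.2 and 173.5 CPM in CBX7-overexpressing cells, and MCM6 had 140.8 and 132.3 against 135.4 and 135.8 CPM. In both genes the groups overlapped, and their means differed by less than the control libraries did. The log2 fold changes of the 6 subunits ran from -0.07 (MCM4) to 0.09 (MCM7), and 0 of 6 had groups that did not overlap, where 30.2% of all genes did in either direction. MCM10, which helps the loaded helicase to start, had 49.5 and 52.1 against 46.2 and 56.2 CPM. CDC45, a part of the active helicase, had 58.7 and 58.5 against 72.3 and 58.6 CPM, so that CBX7 replicate 1 alone was high, and after the length correction both CBX7 libraries lay just above the controls.

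GINS, the tetramer that completes the active helicase, held both ends of the range. GINS2 (ENSG00000131153, minus strand of chromosome 16, 85676198 to 85690073 in GRCh38) had 41.2 and 40.5 CPM in control and 59.6 and 46.7 CPM in CBX7-overexpressing cells. Both CBX7 libraries lay above both controls, and replicate 1 more so. GINS2 was 0.38 higher on the log2 scale (standard error 0.16, 95% interval -0.03 to 0.79), with an unadjusted p of 0.0626 and an adjusted p of 0.951 (edgeR). After the length correction it was 0.35 (unadjusted p = 0.0246, edgeR), and without CBX7 replicate 1 it was 0.20. Exons of GSE1 overlap those of GINS2 on the opposite strand, and whether the counting used strand is not given in the sources used here.

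GINS4 (ENSG00000147536) had 36.5 and 37.8 CPM in control and 30.0 and 37.7 CPM in CBX7-overexpressing cells. Only CBX7 replicate 1 was low, although the table gives the gene 1158 bases, a length at which other genes were high in that library. Its deposited TPM points to a longer length. In control GINS4 had 37.2 CPM and 19.8 TPM, where PCNA, at 1359 bases, had 272.0 CPM and 344.0 TPM. The length correction of GINS4 thus used a length that its TPM does not bear out. GINS4 differed by -0.13 on the log2 scale (standard error 0.16, adjusted p = 0.951, edgeR), by -0.25 after the length correction, and by 0.03 without CBX7 replicate 1. GINS3 had 24.2 and 21.7 against 21.2 and 21.0 CPM, with both CBX7 libraries just below the controls (log2 fold change -0.12, and -0.21 after the length correction), and GINS1 was level at 82.6 and 81.8 against 82.7 and 81.4 CPM. The estimates of the 4 subunits of this complex lay on both sides of 0. At an adjusted p under 0.05, 0 of 4 passed the test, where 0.0202% of all genes did.

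Groups that did not overlap were no more frequent among the members than among all genes. Both CBX7 libraries lay above both controls for 6 members (ORC3, ORC4, GINS2, POLE2, RPA2 and RPA3), or 12.2%, where 15.4% of all genes tested did so. They lay below for 3 members (ORC1, GINS3 and RRM2), or 6.12%, where 14.8% of all genes did. After the length correction the counts were 7 (14.3%) and 4 (8.16%) of 49, against 18.1% and 18.6%.

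**Figure D3:**
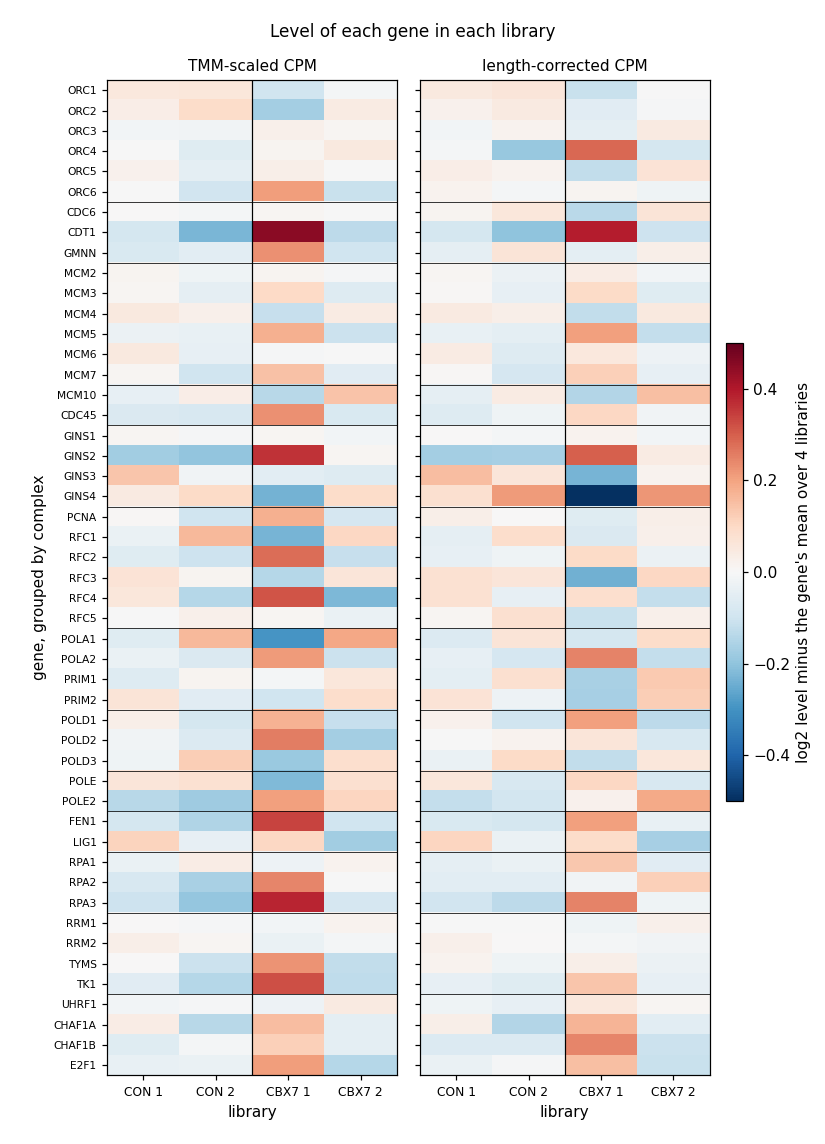
The colour gives the log2 level of each gene (rows, grouped by complex) in each library (columns) minus the gene's mean over the 4 libraries, from TMM-scaled CPM (left) and from length-corrected CPM (right). CBX7 replicate 1 carries the strongest colours in both panels, red for CDT1, GINS2 and RPA3 and blue for GINS4.

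At the fork, PCNA, the sliding clamp whose protein the study blotted (ENSG00000132646, minus strand of chromosome 20, 5114953 to 5126626 in GRCh38), had 281.8 and 262.3 CPM in control and 318.1 and 265.3 CPM in CBX7-overexpressing cells. CBX7 replicate 1 was the highest, and CBX7 replicate 2 lay between the controls. Its log2 fold change was 0.10 (standard error 0.15, 95% interval -0.26 to 0.47, adjusted p = 0.951, edgeR), and -0.03 after the length correction. In deposited TPM, where a level is scaled by gene length, PCNA was at 349.4 and 338.6 in control and at 330.9 and 348.2 in CBX7-overexpressing cells. CBX7 replicate 1 was the lowest, in a library where the median log2 TPM ratio of all genes to CON replicate 1 was -0.21. The clamp loader subunits RFC1 to RFC5 had log2 fold changes from -0.12 (RFC1) to 0.18 (RFC2), and -0.13 to 0.07 after the length correction. Without CBX7 replicate 1 they ran from -0.18 (RFC4) to 0.04 (RFC1), and all but RFC5 changed sign. RFC4 was the least even of them, at 55.9 and 48.7 against 67.0 and 46.0 CPM, and its exons overlap those of EIF4A2 on the opposite strand.

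Of the polymerases, epsilon, which copies the leading strand, is represented by the subunits POLE and POLE2. Its catalytic subunit POLE, the longest member at 7840 bases, had 130.0 and 131.4 CPM in control and 106.8 and 131.8 CPM in CBX7-overexpressing cells. CBX7 replicate 1 alone was low. In the test POLE had a log2 fold change of -0.13 (standard error 0.15, adjusted p = 0.951, edgeR), and 0.02 after the length correction.

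POLE2, the second subunit and the member with the fewest counts, had 10.8 and 10.5 CPM in control and 13.7 and 12.8 CPM in CBX7-overexpressing cells. Here the CBX7 libraries stood near each other and above both controls. Its log2 fold change was 0.31 (standard error 0.15, unadjusted p = 0.0808 and adjusted p = 0.951, edgeR), 0.22 after the length correction and 0.27 without CBX7 replicate 1. For polymerase alpha-primase (POLA1, POLA2, PRIM1 and PRIM2) the log2 fold changes were between -0.08 and 0.11, and for polymerase delta (POLD1, POLD2 and POLD3) between -0.10 and 0.10. The groups of all 7 genes overlapped, where 30.2% of all genes had groups that did not. Without CBX7 replicate 1 all of them but PRIM1 changed sign, POLA1 from -0.083 to 0.145 and POLD2 from 0.101 to -0.124.

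FEN1, the nuclease that trims Okazaki fragments, had 190.8 and 182.7 CPM in control and 256.3 and 189.0 CPM in CBX7-overexpressing cells. CBX7 replicate 1 stood apart, and replicate 2 lay between the controls. Its log2 fold change was 0.25 (standard error 0.18), 0.17 after the length correction, with which the CBX7 libraries lay above both controls, and 0.02 without CBX7 replicate 1. Its exons overlap FADS2 on the same strand. LIG1, the ligase that seals the fragments, had 61.1 and 55.1 against 60.8 and 50.2 CPM, with overlapping groups.

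The single-strand binding complex RPA had the highest median log2 fold change of the 13 groups, 0.25. After the length correction it was 0.10, below the 0.12 of polymerase epsilon, and without CBX7 replicate 1 it was 0.07, below the 0.14 of polymerase epsilon. RPA3, its smallest subunit, had 39.1 and 36.8 CPM in control and 54.7 and 39.7 CPM in CBX7-overexpressing cells. RPA2, which is phosphorylated in S phase and under replication stress, had 45.3 and 42.8 against 56.7 and 47.8 CPM. In both genes the CBX7 libraries lay above the controls, RPA3 by little in replicate 2. RPA3 had a log2 fold change of 0.32 (standard error 0.19, adjusted p = 0.951, edgeR), 0.23 after the length correction and 0.07 without CBX7 replicate 1. RPA2 had one of 0.25 (standard error 0.15), 0.10 after the length correction and 0.12 without CBX7 replicate 1. RPA1, which carries most of the DNA-binding surface, was level at 175.6 and 184.4 against 176.4 and 182.0 CPM, with a log2 fold change of -0.01 that became 0.08 after the length correction, when its groups still overlapped. Exons of UMAD1 overlap those of RPA3 on the opposite strand.

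The genes of nucleotide supply stood among the most abundant. RRM2, the small subunit of ribonucleotide reductase, had 415.0 and 409.1 CPM in control and 397.4 and 403.8 CPM in CBX7-overexpressing cells, with no overlap, and RRM1, the large subunit, had 253.4 and 252.3 against 250.9 and 256.6 CPM. The gap in RRM2 was small beside its level. TYMS, the thymidylate synthase, had 213.7 and 198.3 against 249.7 and 196.2 CPM, and TK1, the cytosolic thymidine kinase, had 247.2 and 233.0 against 321.5 and 235.3 CPM. In TYMS and TK1 CBX7 replicate 1 was high and replicate 2 lay within or below the control range. The log2 fold changes of the 4 genes ran from -0.04 (RRM2) to 0.21 (TK1), and after the length correction they lay between -0.03 and 0.10. Without CBX7 replicate 1 TK1 turned to -0.02 and TYMS to -0.07, while RRM1 and RRM2 kept their sign.

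At the chromatin behind the fork, UHRF1, which directs maintenance methylation, had 167.8 and 168.8 against 166.5 and 174.7 CPM, and the chromatin assembly factor genes CHAF1A and CHAF1B had 74.1 and 65.6 against 80.4 and 69.9 CPM and 49.5 and 51.3 against 56.1 and 49.9 CPM. E2F1, the transcription factor that activates many of the genes above, had 83.2 and 83.5 CPM in control and 98.6 and 77.4 CPM in CBX7-overexpressing cells. The CBX7 libraries of E2F1 lay on either side of the controls. The log2 fold changes of these 4 genes were 0.02 to 0.11, and 0.05 to 0.15 after the length correction. Without CBX7 replicate 1 E2F1 turned to -0.10 and CHAF1B to -0.01, while UHRF1 and CHAF1A stayed above 0. With the correction for length and GC content E2F1 alone turned, to -0.06.

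Transcript levels in deposited TPM differed far more between members than between groups. In control cells PCNA had the highest level, 344.0 ± 7.69 TPM (SD, n = 2), followed by TK1 (293.9 ± 8.67 TPM) and RRM2 (256.2 ± 25.3 TPM). MCM4 and MCM7 came next, at 235.5 ± 4.37 and 223.9 ± 5.36 TPM, and the control values of RRM2 and MCM4, from 238.3 and up to 238.6 TPM, met. POLE2 had the lowest level, 10.5 ± 0.926 TPM, below GINS3 (15.3 ± 1.17 TPM) and ORC2 (15.6 ± 0.955 TPM), whose ranges overlapped. The median of the members was at 48.6 TPM, beside 12.4 TPM for all genes tested, and 48 of the 49 lay above that median of all genes. Many neighbours in the middle of the order, such as CDC6, UHRF1 and RFC2 near 60.5 to 60.9 TPM, did not differ beyond their spread.

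Transcripts of subunits of 1 complex differed in level. Among MCM2-7, MCM4 exceeded MCM6 (50.2 TPM) by 4.69 times in control cells, and in CBX7-overexpressing cells MCM7 was the highest and exceeded MCM6 by 4.71 times. In the origin recognition complex ORC6 (51.5 TPM) exceeded ORC2 by 3.30 times in control cells and 3.58 times in CBX7-overexpressing cells. POLD2 exceeded POLD3 by 6.58 and 7.17 times, with a ratio from 5.86 to 9.1 in the single CBX7 libraries. These ratios depend on the length assigned to each gene: with TMM-scaled counts per kilobase of table length, the control ratio of the extreme subunits was 5.58 in the origin recognition complex (ORC6 over ORC4) and 3.84 in MCM2-7 (MCM7 over MCM6). In RPA the order turned, from RPA3 highest and RPA2 lowest in TPM to RPA1 highest and RPA3 lowest per kilobase.

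**Figure D4:**
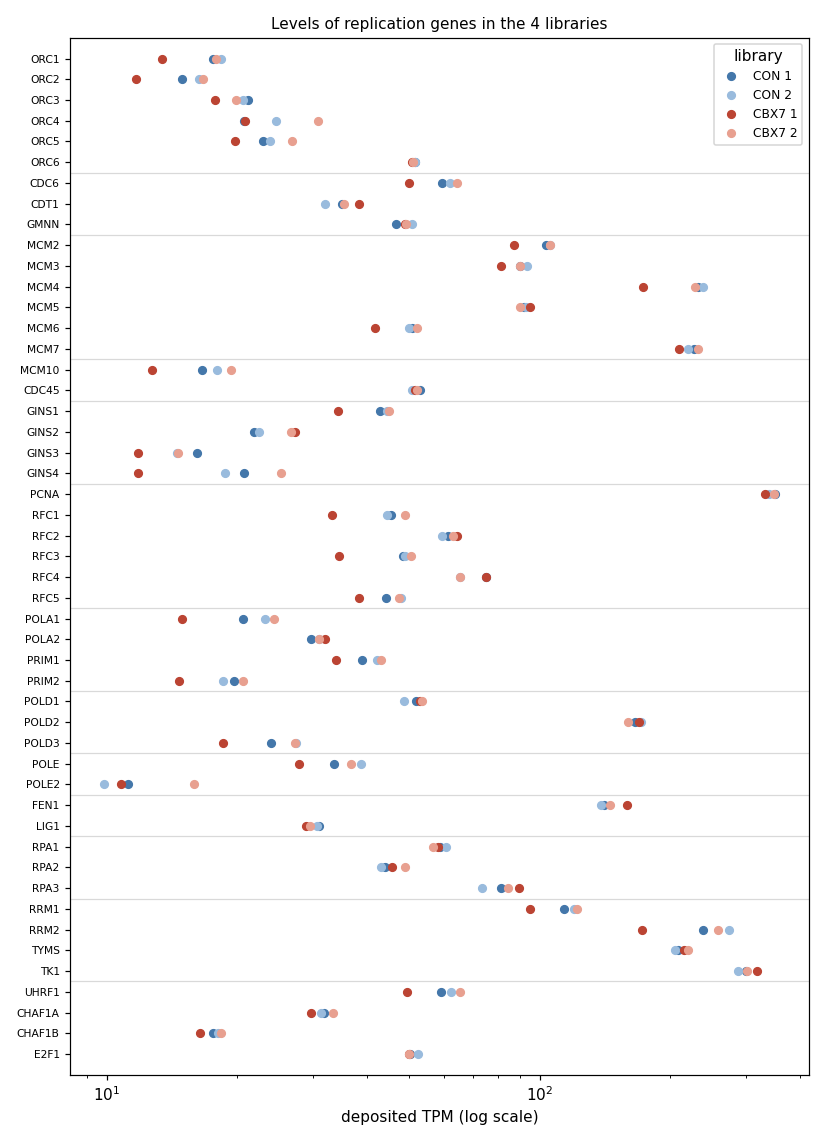
The deposited TPM of each replication gene (horizontal axis, log scale) is plotted for the 4 libraries, controls in blue and CBX7 libraries in red, with grey lines parting the complexes. Levels run from 9.85 TPM (POLE2) to 349.4 TPM (PCNA), and CBX7 replicate 1 lies lowest for many genes, as it did over all genes (median log2 ratio -0.21 to CON replicate 1).

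In TPM most genes, members included, were lower in CBX7 replicate 1 than in CON replicate 1. Its TPM was below that of CON replicate 1 in 35 of the 49 members, with a median log2 ratio of -0.12, and the median over the 11077 genes with at least 100 counts on average was -0.21, with 8015 of them below. In TMM-scaled CPM 31 of the 49 members lay above. For the libraries numbered 2 the median log2 TPM ratio of the members was 0.04, beside 0.01 for all genes. Beside the median of all genes, the members' median in CBX7 replicate 1 lay higher on both scales (0.04 against 0.00 in CPM).

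A feature the choice of members did not use is the sequence at their start sites. RefSeq promoters (250 bases before to 50 after the start, build GRCh38.p14) were matched by symbol for 43 of the 49 members, with 56 promoters in all, and none was matched for POLD3, MCM4, MCM5, GINS4, RPA2 and RPA3. The E2F motifs TTTCCCGC, TTTGGCGC, TTTCGCGC and TTTGCCGC, searched on both strands, occurred in 22 of the 56 promoters (39.3%), beside 1164 of all 35116 promoters in the table (3.31%). A motif was held by 21 of the 43 genes. Of 29 matches, 18 began within 100 bases before the start. The CCAAT box (CCAAT, both strands) occurred in 33 promoters (58.9%), beside 34.6% of all, and the short cell cycle element TTTGAA or TTCGAA in 2 (3.57%), beside 16.4%. A match describes letters and not bound sites, and neighbouring promoters of 1 gene overlap.

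The promoters of GINS2, CDT1 and POLE2, the members with the largest rises that could be matched, of PCNA and of E2F1 are shown. They were picked because they hold such a motif and none of their transcripts passed the test. The next largest rises that could be matched, FEN1, TK1, RFC2 and CDC45, hold none. Of the members with the largest falls, POLE holds 1 and is not shown, ORC2 holds none and GINS4 was not matched. Each is read 5′ to 3′ on the strand of its gene, with the E2F motif or its reverse complement in capitals. For PCNA the promoter of the start farther upstream is given, and that of the other start held no match.
GINS2, chr16:85688905-85689204, minus strand: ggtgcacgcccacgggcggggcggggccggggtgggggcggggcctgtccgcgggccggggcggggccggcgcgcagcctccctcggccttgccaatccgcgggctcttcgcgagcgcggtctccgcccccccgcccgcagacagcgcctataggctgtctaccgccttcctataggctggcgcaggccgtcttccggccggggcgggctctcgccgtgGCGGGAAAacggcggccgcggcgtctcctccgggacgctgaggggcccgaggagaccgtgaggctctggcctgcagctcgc
CDT1, chr16:88803539-88803838, plus strand: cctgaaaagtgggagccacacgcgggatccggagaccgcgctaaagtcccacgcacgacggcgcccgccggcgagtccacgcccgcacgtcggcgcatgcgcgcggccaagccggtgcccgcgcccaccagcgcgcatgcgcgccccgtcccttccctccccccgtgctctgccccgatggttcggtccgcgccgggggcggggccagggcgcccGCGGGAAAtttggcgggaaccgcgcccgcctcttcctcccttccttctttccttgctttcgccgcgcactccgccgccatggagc
POLE2, chr14:49688165-49688464, minus strand: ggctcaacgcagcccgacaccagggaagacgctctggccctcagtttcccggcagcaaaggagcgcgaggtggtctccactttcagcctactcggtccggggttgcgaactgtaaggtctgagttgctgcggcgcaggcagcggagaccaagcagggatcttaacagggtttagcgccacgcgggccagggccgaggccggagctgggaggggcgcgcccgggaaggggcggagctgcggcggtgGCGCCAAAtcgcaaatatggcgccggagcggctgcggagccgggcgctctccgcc
PCNA, chr20:5126573-5126872, minus strand: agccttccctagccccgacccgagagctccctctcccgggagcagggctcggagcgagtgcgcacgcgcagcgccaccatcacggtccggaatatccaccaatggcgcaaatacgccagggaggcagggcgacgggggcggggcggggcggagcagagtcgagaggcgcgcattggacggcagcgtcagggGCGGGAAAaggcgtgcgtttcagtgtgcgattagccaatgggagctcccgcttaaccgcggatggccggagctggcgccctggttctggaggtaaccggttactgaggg
E2F1, chr20:33686336-33686635, minus strand: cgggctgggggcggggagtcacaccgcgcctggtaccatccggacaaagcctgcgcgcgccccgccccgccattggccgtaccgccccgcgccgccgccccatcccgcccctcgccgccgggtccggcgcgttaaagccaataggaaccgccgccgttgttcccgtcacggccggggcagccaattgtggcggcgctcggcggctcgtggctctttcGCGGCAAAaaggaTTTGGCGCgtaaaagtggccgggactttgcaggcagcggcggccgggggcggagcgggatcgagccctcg

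GINS2 and CDT1 hold the same 8 letters, GCGGGAAA, at 31 and 35 bases before the start, and PCNA holds them at 59 bases before it. POLE2 holds GCGCCAAA at 5 bases before the start. E2F1 holds a pair of matches, GCGGCAAA and TTTGGCGC, at 33 and 20 bases before its own start.

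Beyond the members, 54 other genes of replication (origin firing, fork protection, accessory helicases and nucleases, other E2F and pocket proteins, nucleotide and chromatin genes) were tested, and 0 had an adjusted p under 0.05 in edgeR's test (0.0202% of all genes), with 0 also at an unadjusted p under 0.05 (4.74% of all genes). Their median log2 fold change was -0.02, from -0.29 to 0.44. The highest value belonged to E2F2, an activating E2F, named here after its values were seen, with 6.66 and 8.0 CPM in control and 9.11 and 10.8 CPM in CBX7-overexpressing cells. Both CBX7 libraries lay above the controls. Its unadjusted p was 0.0601 (edgeR), and 0.00926 after the length correction, where 6.88% of all genes had one under 0.05 and the smallest adjusted p of these 54 genes was 0.392.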

How the data were processed

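The transcriptome of T24 cells was profiled in 2 control and 2 CBX7-overexpressing libraries, sequenced by a company on an Illumina HiSeq instrument from total RNA with random primers. The authors deposited an expected count (an estimated count that need not be whole) per gene and library, a TPM value per gene and library and a gene length (in bases) used as deposited. The TPM of GINS4, ORC4 and RPA3 did not follow that length. In control ORC4 (6710 bases) had 40.3 CPM and 22.6 TPM, beside 130.7 and 36.1 for POLE (7840 bases). RPA3 (2020 bases) had 37.9 CPM and 77.4 TPM, beside 186.7 and 139.5 for FEN1 (2016 bases). Their length classes and corrected values rest on the table length. The submitters' processing notes name cutadapt 1.9.1, HISAT2 2.0.1, HTSeq 0.6.1, DESeq2 and hg19, without roles. Between 88.2% and 88.9% of the counts were whole (within 0.001), so the notes do not settle how reads shared by several genes were counted, and 17 members had a count that was not whole in at least 1 library. The table also holds group means and the authors' own fold changes and p-values, none of which was used. Coordinates, overlaps and GC content came from GENCODE release 29 on GRCh38, which need not be the annotation behind the counts.

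After rounding, low counts were removed with filterByExpr, libraries were scaled by TMM, and condition was tested without covariates by the quasi-likelihood functions glmQLFit and glmQLFTest of edgeR 4.0.16 under R 4.3.3. The p-values were adjusted by the Benjamini-Hochberg method over all 14862 genes tested. Standard errors and 95% intervals came from the same fit. CPM values are TMM-scaled. The length correction removed from each library a smooth trend (natural spline with 6 degrees of freedom) of log2 CPM (prior count 2, genes averaging 100 counts or more) on log gene length, through offsets. Alternatives were DESeq2's size factors and Wald test (DESeq2 1.42.0), no filter, a replicate block, the length correction with and without the block, each library left out and, added after seeing the data, a length and GC correction.

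Replicates were not copies of each other: chi-square over degrees of freedom was 6.49 for the control pair and 59.7 for the CBX7 pair. A count of 0 would allow up to 3 counts (0.119 to 0.144 CPM), a limit that covers counting error only, and members had 220 to 11393 expected counts. The members and lists were chosen with earlier results of these data known. Full statistics were given for members with an unadjusted p under 0.05, for the 3 with the largest rise and the 3 with the largest fall and for PCNA and CBX7. POLE2, RPA2 and FEN1 were added after their values were seen.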

Additional observations from a re-analysis of the deposited data

How the results depend on the processing

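Of the 49 members 0 had an adjusted p under 0.05 in the main edgeR test or under DESeq2's size factors, DESeq2's Wald test, no filter, the replicate block, the length correction, both together, or the length and GC correction. Over all genes, 3 were called in the main test, 67 by the Wald test, 265 with no filter, 361 with the block, 378 with the block and length correction and 5 with the length and GC correction (0.451%, 1.01%, 2.43%, 2.54% and 0.0336% of genes). Members with an unadjusted p under 0.05 numbered 1 with no filter, 2 with the block, 1 with the length correction, 4 with block and length correction (CDT1, GINS2 and RPA3 higher, GINS4 lower) and 2 with length and GC (GINS2 and POLE2), where 5.21%, 10.2%, 6.88%, 12.8% and 7.67% of all genes did.

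Same-numbered libraries deviated together (correlation 0.38 over all genes, 0.62 over genes averaging 100 counts or more, 0.65 over the members), but 2 pairs are too few and no label says that a number marks a shared batch, so pairing by the replicate block stayed an alternative. In it the smallest adjusted p of a member was 0.321 (GINS2, edgeR), and 0.103 (GINS2, edgeR) with the block and the length correction together.

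With the length correction, and with it and the block, the median over members was 0.0085 and 0.0052, that of the origin recognition complex -0.029 and -0.030, of helicase activation 0.049 and 0.045, of GINS -0.102 and -0.105 and of RPA 0.103 and 0.101. The log2 fold change of POLE turned to 0.022 and 0.021 and that of PCNA to -0.031 and -0.032. The length and GC correction turned them back, to -0.029 and 0.016, and gave 0.030 for the median over members and 0.021 for origin recognition.

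Leaving out 1 library in turn gave 45 to 5491 genes called, 0 to 16 members called, 0 to 25 members at an unadjusted p under 0.05 and 0 to 25 other replication genes called. The highest of these values all came without CBX7 replicate 2, when 35.5% of all genes were called and 43.0% had an unadjusted p under 0.05, and where the lone CBX7 library was assumed to vary like the controls. The median over members was 0.0041 to 0.052, and by complex -0.00092 to 0.044 (origin recognition), 0.0056 to 0.291 (licensing), -0.031 to 0.109 (clamp and loader), 0.065 to 0.102 (helicase activation), -0.061 to 0.0088 (GINS), -0.046 to 0.085 (polymerase alpha), -0.086 to 0.198 (delta), 0.034 to 0.142 (epsilon), -0.093 to 0.259 (Okazaki fragments), 0.071 to 0.361 (RPA) and -0.0025 to 0.177 (chromatin and E2F1). Groups did not overlap for 9 to 27 members higher and 8 to 17 lower, where a group of 1 library gave 22.3% to 43.9% and 22.5% to 43.3% of all genes. GINS4 ranged from -0.311 to 0.027, POLE from -0.293 to 0.017 and PCNA from -0.032 to 0.224.

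With counts per kilobase in place of TPM, the control ratio of highest to lowest subunit was 5.58 for origin recognition, 2.97 for licensing, 3.84 for MCM2-7, 1.76 for helicase activation, 2.42 for GINS (GINS4 highest, not GINS1), 7.92 for clamp and loader, 1.86 for polymerase alpha, 2.65 for epsilon, 4.98 for Okazaki fragments, 1.98 for RPA (RPA1 over RPA3), 1.77 for nucleotide supply and 3.76 for chromatin and E2F1. The cause of these changes was not tested.

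With 2 libraries per group, differences smaller than the intervals given were not detectable, and each p-value borrows its spread from other genes. The intervals were taken singly, and the size of change that the adjusted test detects was not tested. In the main test 3 of 14862 genes had an adjusted p under 0.05, with CBX7 among them at a log2 fold change of 7.35. The count of 0 members at that threshold thus does not show that the members were unchanged.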
